A study of Homo sapiens with 24 samples.

Results

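HCC38 is an established human line of triple-negative breast cancer, the class that lacks hormone receptors and HER2 amplification. The comparison described here set 3 HCC38 libraries given 5 uM tazemetostat and 5 uM ipatasertib together (replicates A, B and C) against 3 given the vehicle DMSO, and used all genes that passed a low-count filter. It drew on 6 of the 24 RNA-seq libraries of the series and on 17100 of the 58735 entries in each count file. Tazemetostat inhibits the histone methyltransferase EZH2 (EZH2i) and ipatasertib inhibits the AKT kinases (AKTi). HCC38 has no library with a single inhibitor here, so the parts of each inhibitor in a change cannot be told apart. The labels give a treatment schedule for another line and another assay, and the duration for these libraries is not clear from them. HCC1937 and HCC1395, also established triple-negative lines, had the same pair of groups with 3 libraries each and serve below for comparison.

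EZH2 is the catalytic subunit of the Polycomb complex PRC2, which places the repressive mark H3K27me3 on histone H3 and keeps many developmental genes silent in differentiated cells. AKT is the kinase downstream of PI3K that carries growth factor and insulin signals to metabolism, ribosome production and survival. It also holds FOXO transcription factors in the cytoplasm, and FOXO targets include receptors and adaptors that feed back on the same pathway. Neither the histone mark nor kinase activity was measured in these RNA libraries.

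Library totals in HCC38 ran from 33806811 to 41816594 counts. The first principal component held 66% of the variance and separated the groups, and the second held 15.2%. The labels do not state that replicates A, B and C were separate cultures, and the p-values therefore cover only the spread between these libraries, which may be technical. The epithelial marker EPCAM stood at 389 to 520 CPM (read counts scaled to the total of the library), whereas PGR, the progesterone receptor gene, was at 0.102 or below and ESR1, the oestrogen receptor gene, at 1.80 to 3.23. ERBB2, the HER2 gene, was not near 0 and stood at 113 to 169 CPM. Of 11 leukocyte markers 4, among them MS4A1, LYZ and CD163, had a count of 0 in all 6 libraries. The summed level was 17.0 to 19.6 CPM under DMSO and 12.6 to 13.5 under both inhibitors, most of it from CD14 and CSF1R. The markers did not move together. CD14 went from 327, 315 and 273 counts to 90, 134 and 144, and CSF1R from 285, 249 and 264 to 353, 350 and 223. PTPRC, the general leukocyte marker, went from 0, 1 and 1 to 8, 7 and 7. Of 8 fibroblast markers the sum was 25.3 to 26.6 CPM under DMSO and 36.9 to 39.6 under both inhibitors. Most of that came from COL1A1. By counts in DMSO A, B and C and then treated A, B and C, COL1A2 went from 12, 15 and 21 to 68, 63 and 44, PDGFRA from 0, 1 and 3 to 11, 23 and 25, and LUM from 0, 0 and 0 to 3, 8 and 2. DCN and COL3A1 had at most 2 counts in any library. In such bulk libraries, fewer cells of a kind and less RNA per cell cannot be told apart.

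Replicate C of the treated group stood apart in composition. Mitochondrial transcripts took 7.77% of its counts, against 4.76% and 5.19% in treated A and B and 5.08 to 5.82% under DMSO. Changes also moved with transcript composition and length over 13678 protein-coding genes. In the quintile of genes with the lowest GC content 21.2% were called higher and 5.22% lower, and in the quintile with the highest 13.9% and 22.9%. By length, 9.97% of the shortest quintile were called higher and 29.6% lower, against 27.8% and 6.44% of the longest. The GC trend was steepest in treated C, where the median log2 level over the DMSO mean went from 0.33 in the lowest GC quintile to -0.37 in the highest. It went from 0.09 to -0.10 in treated B and the opposite way, from -0.08 to 0.05, in treated A. The length trend had the same sign in all 3 treated libraries. Its part in the gene groups below was not tested, and each count that a fit with a GC and length offset per library moved by over 1.5 times is given with that value.

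**Figure D1:**
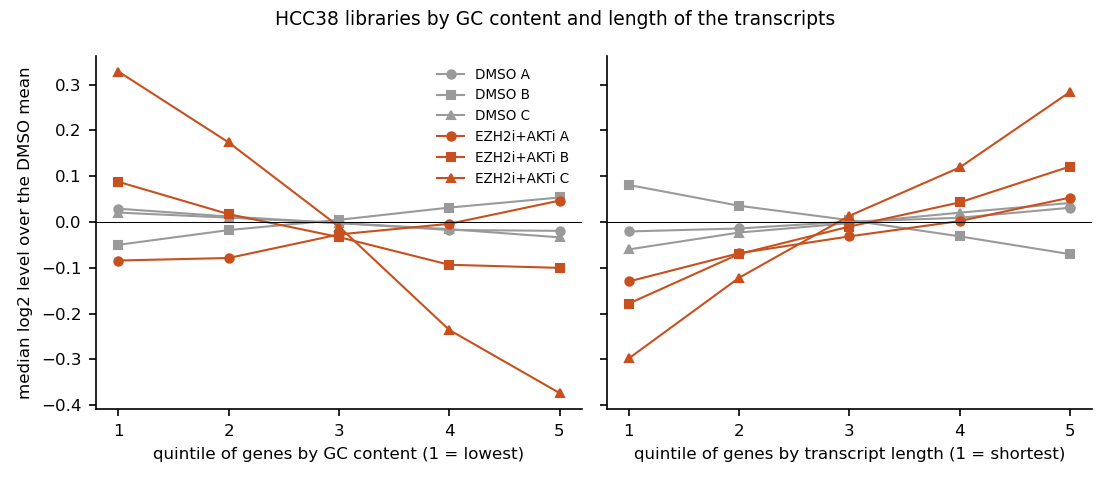
Median log2 level over the DMSO mean (y axis, log2 of CPM plus 0.5) for each quintile of protein-coding genes by GC content (left) or transcript length (right), with 1 line per HCC38 library. Treated library C falls from 0.33 to -0.37 across the GC quintiles, treated A and B lie closer to 0, and all 3 treated libraries rise with length.

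Under both inhibitors 5362 of 17100 genes changed (31.4%, edgeR quasi-likelihood test, Benjamini-Hochberg adjusted p below 0.05). Of these 2874 rose (16.8%) and 2488 fell (14.5%). The counts of risers and fallers in gene lists below are to be read against these shares. Rises were the larger changes: 1179 genes rose by 2-fold or more (6.89%) and 196 fell by as much (1.15%). Rises outnumbered falls at low levels, and falls outnumbered rises at high levels. Among 3140 genes with a mean under 1 CPM 462 rose and 98 fell, whereas among 2260 genes at 100 CPM or above 213 rose and 731 fell. The count of falls rested on all of the DMSO libraries and on treated B, being 1432, 1176 and 1556 without DMSO A, B or C and 1060 without treated B. Falls of 2-fold or more numbered 318 without treated A and 98 under a stricter filter. Apart from a panel of 28 genes, those named below were picked for a large change or a small p in their list. That their groups do not overlap follows in large part from this choice and is given as description. The share of all genes whose groups do not overlap is not given.

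**Figure D2:**
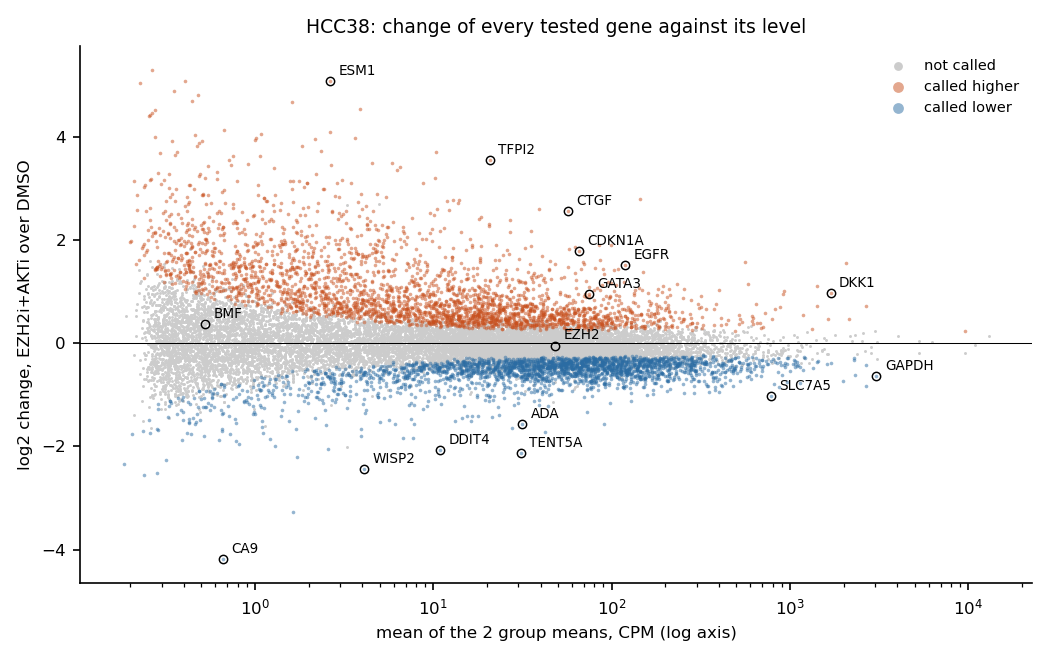
Log2 change of each tested HCC38 gene (y axis, EZH2i+AKTi over DMSO) against the mean of the group means in CPM (x axis, log scale), with red for genes called higher, blue for genes called lower and grey for the rest. Low-level genes such as ESM1 rose the most, CA9 fell the most, and genes at high levels such as GAPDH and SLC7A5 fell by smaller steps.

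The transcript of the inhibited methyltransferase did not change detectably. EZH2 stood at 48.1, 49.5 and 49.0 CPM in DMSO A, B and C and at 41.9, 46.5 and 53.5 in treated A, B and C (log2 change -0.05 ± 0.11, SE, adjusted p = 0.77), so the groups overlapped. Without treated A its log2 change was 0.05, with the opposite sign (adjusted p = 0.72). Among 13 genes of PRC2 and the H3K27 demethylases 1 rose and 1 fell (7.69% each), below the shares over all genes. The riser was EZH1, the catalytic paralog of EZH2, from 9.18, 9.26 and 8.72 CPM to 14.3, 15.2 and 11.7 (log2 change 0.60 ± 0.13, adjusted p = 0.0054). All 3 treated libraries lay above all DMSO libraries. PRC1, the Polycomb complex that binds H3K27me3 and ubiquitylates histone H2A, had 3 risers and 1 faller among 19 genes (15.8% and 5.26%), no more than the shares over all genes. BMI1, a RING-finger subunit of that complex, rose from 52.9, 49.9 and 52.1 CPM to 103, 124 and 164 (log2 change 1.33 ± 0.15, adjusted p = 0.00015). The paralog PCGF5 (log2 change 0.70 ± 0.13) and RNF2, the catalytic ubiquitin ligase (0.62 ± 0.12), also rose.

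The target kinase genes AKT1 and AKT2 gave no call in the 6-library fit. AKT1 was at 145, 142 and 140 CPM under DMSO and 148, 127 and 118 under both inhibitors (adjusted p = 0.41). AKT2 was at 183, 182 and 188 and then at 189, 147 and 116 (log2 change -0.29 ± 0.15, adjusted p = 0.17). It spread widely with treated A at the DMSO level. Without treated A the log2 change of AKT2 was -0.47 (adjusted p = 0.0065), and with the GC and length offset -0.22 (adjusted p = 0.0496).

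Of 20 AKT and PI3K components 5 rose and 4 fell. PIK3CD, the catalytic subunit p110 delta, rose from 15.4, 14.5 and 13.2 CPM to 32.8, 32.3 and 29.4 (log2 change 1.13 ± 0.11). It overlaps the more abundant CLSTN1 on the opposite strand. INPP4B, a phosphatase that removes a PI3K product, rose from 10.2, 9.60 and 8.95 CPM to 16.7, 19.4 and 22.9 (1.04 ± 0.13). PIK3R3, a regulatory subunit, fell from 27.2, 29.6 and 31.6 CPM to 13.4, 12.2 and 15.7 (-1.10 ± 0.12, adjusted p = 0.00012). In these 3 genes no treated library lay within the DMSO range.

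Developmental regulators known as Polycomb targets moved in both directions, mostly up. Of 77 genes of this list 56 were tested. Of these 35 rose and 11 fell (62.5% and 19.6%), 24 of the rises and 2 of the falls by 2-fold or more. The median log2 change was 0.80 against -0.01 over all genes. A gene silent under DMSO could pass the low-count filter only through the treated libraries, that is, by being higher there. How far this raised the share of risers and the median was not tested. The median level over the DMSO mean was 0.61, 0.62 and 0.53 (log2) in treated A, B and C. FOXQ1, a forkhead factor, rose from 3.35, 3.04 and 2.81 CPM to 18.4, 19.3 and 13.9 (log2 change 2.49 ± 0.16). TBX15, a T-box factor of skeletal development, rose from 0.352, 0.186 and 0.290 CPM to 1.78, 2.27 and 1.84 (2.81 ± 0.28). PITX1, a homeobox factor of hindlimb identity, fell from 106, 110 and 98.9 CPM to 56.2, 51.3 and 46.4 (-1.03 ± 0.10), and IRX5, an Iroquois homeobox factor, fell from 40.6, 41.2 and 36.8 to 18.3, 18.7 and 14.4 (-1.21 ± 0.12). None of these 4 genes overlapped between groups. The HOX genes, also classical Polycomb targets, had 4 risers and 3 fallers among 28 tested (14.3% and 10.7%). These shares were below those over all genes, and the median log2 change was 0.02. HOXC10 fell by 0.58 ± 0.09 on the log2 scale and HOXB9 rose by 0.42 ± 0.09, the latter call being lost without DMSO C (adjusted p = 0.0504). Of 8 SOX factors 2 rose and 1 fell, and SOX4 went from 58.2, 52.6 and 59.6 CPM to 118, 117 and 111 (1.02 ± 0.09).

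The largest rises at a mean level of 2 CPM or more included genes that were near 0 under DMSO. ESM1, a secreted proteoglycan known from activated endothelium, stood at 0.176, 0.124 and 0.145 CPM under DMSO and 4.73, 5.59 and 5.12 under both inhibitors (log2 change 5.08 ± 0.23, adjusted p = 1.3e-06). Markers of endothelial cells were near 0 in both groups, with a sum over 5 markers of 0.0568 to 0.114 CPM under DMSO and 0.127 to 0.169 under both inhibitors. CORO2B, a coronin that binds actin, went from 0.352, 0.310 and 0.203 CPM to 5.10, 5.36 and 4.51 (4.10 ± 0.23). DRAXIN, a secreted axon guidance protein and WNT antagonist, went from 0.323, 0.527 and 0.464 to 7.63, 7.11 and 5.95 (3.97 ± 0.21). ELOVL2, an elongase of polyunsaturated fatty acids, rose by 3.96 ± 0.28 on the log2 scale, LBH, a developmental transcription cofactor, by 3.70 ± 0.21, and SLC1A1, a glutamate transporter, by 3.49 ± 0.22. TFPI2, an inhibitor of serine proteases in the matrix, rose from 3.43, 2.85 and 3.54 CPM to 36.4, 38.7 and 39.9 (3.55 ± 0.12), and NOG, the BMP antagonist noggin, from 1.03, 1.43 and 0.869 to 14.0, 13.1 and 8.48 (3.42 ± 0.24). These genes were chosen by size of change among called genes whose groups do not overlap.

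The largest falls at that level were smaller than the largest rises. WISP2, a matricellular protein of the CTGF family, fell from 6.51, 8.15 and 6.23 CPM to 1.58, 1.23 and 1.001 (log2 change -2.45 ± 0.20, adjusted p = 1.9e-05). TENT5A, a poly(A) polymerase of secretory cells, fell from 54.5, 46.6 and 49.96 to 9.16, 10.2 and 15.1 (-2.14 ± 0.17). RCOR2, a corepressor that partners the demethylase LSD1, fell from 9.89, 11.7 and 9.997 to 3.52, 3.02 and 2.23 (-1.85 ± 0.17). These genes too were chosen among those whose groups do not overlap. ARTN, a ligand of the RET receptor, fell from 66.1, 69.2 and 60.9 CPM to 22.9, 21.9 and 14.7 (-1.72 ± 0.16). ADA, the adenosine deaminase, which overlaps PKIG on the opposite strand, fell from 46.5, 49.5 and 45.2 to 16.2, 16.8 and 14.7 (-1.56 ± 0.10). SCNN1G, a subunit of the epithelial sodium channel, fell from 11.4, 12.3 and 11.4 to 3.89, 3.86 and 4.17 (-1.56 ± 0.12). CD14, a receptor for lipopolysaccharide that is also among the leukocyte markers above, fell from 9.60, 9.76 and 7.91 to 2.23, 3.05 and 4.01 (-1.56 ± 0.20).

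Feedback genes of the PI3K pathway and FOXO targets rose in part. Of 40 tested members 21 rose and 4 fell, with a median log2 change of 0.36. PIK3IP1, an inhibitor of PI3K, rose from 0.704, 0.806 and 0.869 CPM to 5.55, 4.86 and 3.45 (log2 change 2.54 ± 0.23). INSR, the insulin receptor, rose from 3.73, 3.47 and 3.01 to 13.1, 13.8 and 14.6 (2.02 ± 0.13). KLHL24, a FOXO-induced adaptor of ubiquitin ligases, rose from 7.07, 6.60 and 7.22 to 23.7, 24.9 and 29.8 (1.91 ± 0.12). The groups stood clear of each other in all of these. FOXO1 itself rose from 1.20, 1.21 and 1.51 CPM to 3.47, 4.48 and 6.01 (1.82 ± 0.23). SGK1, a kinase related to AKT with shared substrates, rose from 24.5, 25.2 and 26.4 to 83.2, 91.5 and 94.7 (1.82 ± 0.10, adjusted p = 2.3e-06).

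Other genes of the same list moved little or the opposite way. IRS2, an adaptor of the insulin receptor, was at 55.0, 48.3 and 59.0 CPM under DMSO and 61.5, 58.3 and 63.7 under both inhibitors, which overlapped (log2 change 0.18 ± 0.10, adjusted p = 0.22). TXNIP, an arrestin that restrains glucose uptake, was at 14.3, 13.6 and 14.7 and then at 15.8, 17.7 and 17.9. Its groups did not overlap, yet the change missed the threshold (0.27 ± 0.11, adjusted p = 0.074). It passed at 0.35 without treated A (adjusted p = 0.023), at 0.28 without treated C (0.037), at 0.28 in the fit of 18 libraries (0.0059), at 0.27 with the GC and length offset (0.011) and at 0.31 under the stricter filter (0.041). FBXO32, the ubiquitin ligase atrogin-1, rose by 0.32 ± 0.09 (adjusted p = 0.018), a call lost without DMSO A, B or C (adjusted p = 0.10, 0.056 and 0.10), without treated B (0.067) and with the GC and length offset (0.061). DDIT4, an inhibitor of mTORC1 that also responds to hypoxia and stress, fell from 17.3, 18.7 and 16.9 CPM to 5.397, 3.66 and 3.56 (-2.07 ± 0.16, adjusted p = 1.6e-05).

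Receptor tyrosine kinases, which lie upstream of PI3K, had 14 risers and 1 faller among 23 tested genes, with a median log2 change of 0.65. EGFR rose from 65.4, 54.2 and 66.1 CPM to 161, 166 and 201 (log2 change 1.51 ± 0.12). EPHB2, an ephrin receptor, rose from 51.9, 53.8 and 51.2 to 120, 108 and 91.2 (1.02 ± 0.11), and NTRK2, a neurotrophin receptor, from 37.4, 35.8 and 39.4 to 66.6, 66.9 and 82.0 (0.94 ± 0.11). The highest DMSO library was below the lowest treated library in each.

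Transcripts that report ERK kinase output rose with no faller, 16 of 25, at a median log2 change of 0.46. DUSP6, an ERK phosphatase and feedback gene, rose from 9.71, 9.91 and 10.1 CPM to 40.9, 47.5 and 44.3 (2.16 ± 0.11). DUSP5, its nuclear relative, rose from 33.5, 36.0 and 35.8 to 90.5, 88.6 and 89.7 (1.35 ± 0.09). EGR1, an immediate early transcription factor, rose from 37.7, 32.0 and 36.7 to 137, 128 and 135 (1.91 ± 0.10), and its relative EGR3 from 1.03, 0.960 and 0.811 to 4.90, 5.25 and 4.70 (2.41 ± 0.17). The groups did not overlap in any of the 4. Of 27 AP-1 and immediate early genes 11 rose and 1 fell. This count was 19 without treated C and 21 with the GC and length offset.

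**Figure D3:**
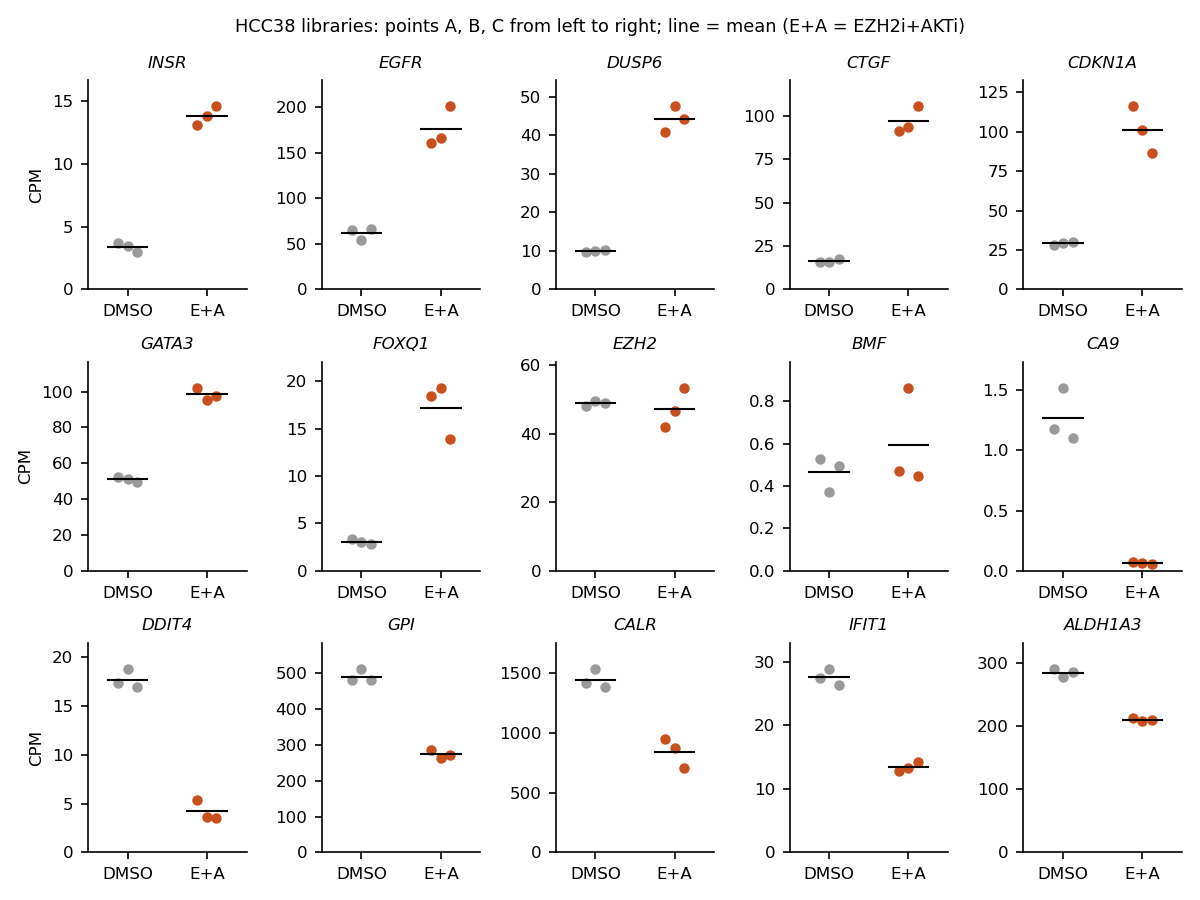
CPM of 15 genes in each HCC38 library, with points for replicates A, B and C from left to right and a line for the mean of 3, DMSO in grey and EZH2i+AKTi (E+A) in red. The groups overlap for EZH2 and BMF and are apart for the other 13 genes.

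Genes of cell death gave a mixed picture. BMF, a BH3-only activator of apoptosis that FOXO factors can induce, was near the limit of detection and did not change detectably: 0.528, 0.372 and 0.493 CPM under DMSO and 0.470, 0.864 and 0.445 under both inhibitors (log2 change 0.36 ± 0.36, adjusted p = 0.47). Treated B alone lay above the DMSO range. Of 10 BH3-only genes 4 rose and 3 fell. HRK rose from 1.70, 1.70 and 1.36 CPM to 5.87, 6.14 and 5.09 (1.84 ± 0.17), and PMAIP1, also called NOXA, from 177, 174 and 172 to 216, 255 and 287 (0.54 ± 0.11). BBC3, also called PUMA, rose from 4.55, 3.90 and 3.82 to 12.03, 8.14 and 4.95 (1.04 ± 0.27, adjusted p = 0.015), with treated C close to the DMSO range. That call was lost without DMSO B (adjusted p = 0.071) or DMSO C (0.052). BID fell by 0.43 ± 0.09 and BNIP3 by 0.48 ± 0.09 on the log2 scale. The anti-apoptotic BCL2 rose from 1.47, 0.837 and 1.45 CPM to 3.96, 3.61 and 3.87 (1.60 ± 0.21).

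Markers of luminal mammary identity had 9 risers and 4 fallers among 20 tested genes. GATA3, a master factor of the luminal lineage, rose from 52.3, 51.5 and 49.4 CPM to 102, 95.5 and 97.7 (log2 change 0.95 ± 0.09, adjusted p = 4.4e-05). FOXA1, its partner, rose from 1.97, 1.61 and 1.68 to 7.45, 8.36 and 8.18 (2.19 ± 0.15), and STAT5A, the prolactin-responsive factor, from 5.99, 6.72 and 5.68 to 13.1, 13.5 and 11.01 (1.03 ± 0.13). The treated libraries were above the DMSO libraries for each. AGR2, a secretory luminal gene, had 12 counts over the DMSO libraries and 107 over the treated, a ratio of 7.47 (exact 95% interval for counting error 4.11 to 14.9). ALDH1A3, an aldehyde dehydrogenase of luminal progenitors and stem-like cells, fell from 290, 278 and 285 CPM to 213, 208 and 210 (-0.43 ± 0.08, adjusted p = 0.0031).

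Among 29 basal and myoepithelial markers 11 rose and 6 fell. KRT5, a basal keratin, fell from 4.31, 4.34 and 5.22 CPM to 2.38, 1.48 and 1.95 (-1.26 ± 0.20), with no overlap. The simple keratins KRT8 and KRT18, which pair in luminal filaments, went opposite ways by small amounts, and the genes overlap on opposite strands. KRT8 was at 996, 1090 and 967 CPM and then at 902, 775 and 593 (-0.43 ± 0.14, adjusted p = 0.038), with the lowest level in treated C. Its call was lost without any DMSO library or without treated B (adjusted p from 0.068 to 0.14), and under the stricter filter (0.069). KRT18 was at 553, 611 and 536 and then at 820, 778 and 640 (0.40 ± 0.11, adjusted p = 0.020), a call lost without DMSO A (0.091), DMSO C (0.096) or treated B (0.079).

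Genes of the hemidesmosome, the junction that ties basal epithelial cells to laminin, had 7 risers and no faller among 11. LAMA3, a chain of laminin 332, rose from 84.8, 82.8 and 89.0 CPM to 130, 130 and 133 (log2 change 0.62 ± 0.09). The integrin ITGA3 rose from 658, 665 and 684 to 1250, 1100 and 936 (0.71 ± 0.11), and ITGA6 by 0.71 ± 0.12. ITGB4, the hemidesmosome's beta integrin, rose from 140, 132 and 138 to 192, 171 and 152 (0.33 ± 0.10, adjusted p = 0.032), a call lost without DMSO A (0.10), B (0.13) or C (0.11) or without treated B (0.090). Of 27 desmosome and tight junction genes 6 rose and 7 fell (22.2% and 25.9%, against 16.8% and 14.5% over all genes). The tight junction gene CLDN1 rose from 11.3, 10.6 and 11.3 CPM to 62.4, 61.4 and 77.7 (2.60 ± 0.12), while the desmosomal cadherin DSG3 fell from 102, 102 and 108 to 36.8, 37.9 and 49.3 (-1.33 ± 0.12). Both had clearly separate groups.

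JAK-STAT3 signalling, which drives the involution of the gland after lactation, was represented by 13 risers and 2 fallers among 27 genes. IGFBP5, a secreted binder of insulin-like growth factors and an involution gene, rose from 8.25, 8.33 and 6.64 CPM to 19.7, 19.7 and 16.3 (log2 change 1.26 ± 0.13). The kinase gene PIM1, a STAT target, rose from 21.0, 21.3 and 22.7 to 42.9, 39.9 and 34.4 (0.85 ± 0.11). JAK1 was at 51.7, 47.1 and 53.3 and then at 64.1, 62.4 and 80.9 (0.45 ± 0.12, adjusted p = 0.017), a call lost without DMSO A (0.061) or DMSO B (0.091). STAT3 was at 334, 323 and 338 and then at 307, 283 and 297. The groups did not overlap but the change missed the threshold (-0.17 ± 0.08, adjusted p = 0.16). It passed as lower with the GC and length offset (-0.16, adjusted p = 0.025).

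Mesenchymal and matrix genes rose more often than they fell. Of 25 mesenchymal and EMT (epithelial to mesenchymal transition) genes 15 rose and 2 fell, and of 34 matrix proteins and proteases 18 rose and 2 fell, with median log2 changes of 0.43 and 0.53. CDH2, the neural cadherin, rose from 45.7, 40.1 and 42.0 CPM to 121, 126 and 143 (log2 change 1.61 ± 0.10). FN1, fibronectin, rose from 129, 111 and 128 to 236, 250 and 307 (1.11 ± 0.12), and SNAI2, an EMT transcription factor, from 7.86, 8.99 and 9.79 to 21.3, 23.5 and 28.3 (1.45 ± 0.14). Treated and DMSO libraries were apart for these. The protease inhibitor SERPINE2 (1.20 ± 0.10), the metalloprotease inhibitor TIMP2 (1.06 ± 0.09) and the collagen COL12A1 (1.18 ± 0.11) rose as well. The sum of fibroblast markers given above was also higher under both inhibitors, and its part in these rises was not tested.

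Targets of YAP and TEAD, the factors that read cell stretch and density, had 14 risers and 3 fallers among 30. CTGF, their standard reporter gene, rose from 15.9, 15.9 and 17.4 CPM to 91.5, 93.5 and 106 (log2 change 2.56 ± 0.11, adjusted p = 9.3e-07). ANKRD1, a cardiac ankyrin repeat protein, rose from 0.998, 1.52 and 1.48 to 6.81, 7.91 and 6.79 (2.43 ± 0.18), and NT5E, the ectonucleotidase CD73, from 36.4, 33.8 and 37.7 to 89.1, 101 and 124 (1.54 ± 0.13). F3, tissue factor, went the other way, from 210, 208 and 217 to 97.6, 106 and 111 (-1.01 ± 0.09). No group overlapped the other in these 4 genes.

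Secreted WNT and BMP regulators rose on both the ligand and the antagonist side. Of 30 WNT pathway genes 16 rose and 1 fell. The ligands WNT6 (14.9, 16.0 and 14.2 CPM to 36.6, 36.6 and 35.2, log2 change 1.27 ± 0.10) and WNT4 (1.09, 1.27 and 0.666 to 5.12, 3.77 and 3.62, 2.05 ± 0.25) rose beside the antagonist DKK1 (1160, 1150 and 1110 to 2083, 2201 and 2431, 0.97 ± 0.09). Of 34 BMP, activin and TGF-beta genes 17 rose and 4 fell. The activin subunit INHBA rose from 23.8, 19.3 and 23.8 CPM to 62.8, 64.6 and 75.7 (1.60 ± 0.12), the ligand BMP2 from 3.05, 2.48 and 3.13 to 9.36, 8.66 and 10.7 (1.72 ± 0.15), and LTBP2, a matrix protein of the latent TGF-beta binding family, from 47.1, 49.5 and 48.1 to 138, 127 and 128 (1.44 ± 0.09). In none of these genes did the groups overlap.

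Genes of glucose breakdown fell in part. Of 23 glycolysis genes 14 fell and none rose, with a median log2 change of -0.46 and medians over the DMSO mean of -0.28, -0.47 and -0.57 in treated A, B and C. GPI, which makes fructose 6-phosphate, fell from 480, 511 and 480 CPM to 285, 264 and 271 (log2 change -0.84 ± 0.09, adjusted p = 6.5e-05). PGAM1, the phosphoglycerate mutase, fell from 414, 416 and 414 to 248, 240 and 260 (-0.73 ± 0.08). GAPDH, often used as a constant reference gene, fell from 3744, 3827 and 3606 to 2409, 2341 and 2401 (-0.64 ± 0.08), and PGK1, a kinase that yields ATP, from 816, 854 and 838 to 552, 536 and 522 (-0.64 ± 0.08). Every treated library lay below every DMSO library for these 4 enzymes. GAPDH, PGK1 and PGAM1 have near-identical pseudogene copies that can share reads. The count of fallers was 9 without treated B.

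Hypoxia-inducible genes share the factor HIF1, which binds a core of ACGTG, and 10 of the 23 tested fell while 4 rose. The core was searched on both strands of the 250 bases before each RefSeq start. It was in 13 of 19 members with a promoter in the table (68.4%), against 21.7% of 27305 genes and 28.3% of the 11748 tested genes with an entry. Among members with the core 3 rose and 5 fell, and among those without 0 rose and 3 fell. The promoters of 3 genes that fell are shown with the core in capitals, 5′ to 3′ on the strand of the gene, from GRCh38.p14. They are CA9 at chr9:35673678-35673927 (plus strand), DDIT4 at chr10:72273674-72273923 (plus strand) and P4HA1 at chr10:73096867-73097116 (minus strand). The core begins at -18, -125 and -86 from the start, in the reverse orientation (CACGT) in CA9 and P4HA1. These matches are descriptions of letters, not of bound sites.
CA9: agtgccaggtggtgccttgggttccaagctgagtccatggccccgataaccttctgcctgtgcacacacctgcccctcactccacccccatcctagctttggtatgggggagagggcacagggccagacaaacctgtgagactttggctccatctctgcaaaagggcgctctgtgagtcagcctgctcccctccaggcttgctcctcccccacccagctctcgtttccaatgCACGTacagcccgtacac
DDIT4: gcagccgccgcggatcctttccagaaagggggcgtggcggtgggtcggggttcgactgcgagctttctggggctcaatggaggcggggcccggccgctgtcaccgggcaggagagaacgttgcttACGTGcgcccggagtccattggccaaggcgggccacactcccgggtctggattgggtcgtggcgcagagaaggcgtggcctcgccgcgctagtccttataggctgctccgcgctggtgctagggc
P4HA1: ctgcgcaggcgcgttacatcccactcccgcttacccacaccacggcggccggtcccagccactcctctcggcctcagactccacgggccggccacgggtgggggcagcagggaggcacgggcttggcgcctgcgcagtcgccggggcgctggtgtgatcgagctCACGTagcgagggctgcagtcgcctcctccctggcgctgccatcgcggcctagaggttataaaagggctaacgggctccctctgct

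CA9, a carbonic anhydrase used as a hypoxia marker, fell the most of the list, from 40, 49 and 38 counts under DMSO to 3, 3 and 2 under both inhibitors, a ratio of 0.0528 (exact 95% interval for counting error 0.0223 to 0.107). It overlaps ARHGEF39 on the opposite strand, which did not change detectably (log2 change -0.21, adjusted p = 0.14). P4HA1, a collagen prolyl hydroxylase, fell from 57.5, 60.6 and 61.3 CPM to 28.0, 27.4 and 33.9 (-1.01 ± 0.11), and PLOD1, a collagen lysyl hydroxylase, from 372, 399 and 385 to 225, 198 and 166 (-0.97 ± 0.11). DDIT4, given above among the PI3K feedback genes, is also on this list. All 4 genes were lower in each treated library than in each DMSO library.

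Chaperones of the endoplasmic reticulum, which fold secreted proteins and rise in the unfolded protein response, had 11 fallers and 1 riser among 20. The count of fallers was 7 without DMSO C and 5 without treated B. CALR, the calcium-binding chaperone calreticulin, fell from 1415, 1530 and 1379 CPM to 949, 869 and 709 (log2 change -0.77 ± 0.11). CRELD2, a stress-induced secreted factor, fell from 146, 165 and 144 to 97.9, 86.6 and 65.9 (-0.86 ± 0.14), and MANF, another, from 82.2, 97.4 and 83.5 to 60.3, 50.4 and 49.8 (-0.71 ± 0.11). The groups did not overlap and treated C had the lowest value of each. The ER stress response element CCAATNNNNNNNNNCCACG was found on either strand in 7 of 19 members (36.8%), against 25 of 27305 genes (0.0916%). Members with it had 4 fallers and no riser, and members without it 6 and 1. The windows of CALR (chr19:12938359-12938608, plus strand) and CRELD2 (chr22:49918384-49918633, plus strand) are shown because both genes fell. Capitals mark the fixed letters of the element, which begins at -225 and -80 and lies in the reverse orientation in both.
CALR: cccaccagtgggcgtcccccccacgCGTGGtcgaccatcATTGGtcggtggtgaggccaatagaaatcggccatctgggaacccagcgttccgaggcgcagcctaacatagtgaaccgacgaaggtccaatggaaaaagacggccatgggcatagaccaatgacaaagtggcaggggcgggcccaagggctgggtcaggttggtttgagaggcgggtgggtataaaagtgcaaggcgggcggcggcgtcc
CRELD2: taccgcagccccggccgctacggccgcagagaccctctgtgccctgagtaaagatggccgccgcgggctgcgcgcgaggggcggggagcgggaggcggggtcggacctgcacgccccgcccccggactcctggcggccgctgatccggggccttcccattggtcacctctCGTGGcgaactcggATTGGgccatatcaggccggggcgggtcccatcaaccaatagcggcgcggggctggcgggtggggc

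Ribosome biogenesis, a growth programme downstream of AKT and mTORC1, had 28 fallers and no riser among 38 genes, at a median log2 change of -0.45 and at -0.42, -0.44 and -0.50 in treated A, B and C. LYAR, a nucleolar regulator, fell from 52.9, 57.4 and 52.4 CPM to 32.1, 33.8 and 31.4 (-0.74 ± 0.09). FBL, the fibrillarin methyltransferase of ribosomal RNA, fell from 241, 283 and 238 to 172, 150 and 142 (-0.71 ± 0.11), and RRP9, a subunit of the U3 processing particle, from 73.1, 86.0 and 75.4 to 53.3, 45.2 and 40.6 (-0.75 ± 0.12). None of the 3 overlapped between groups. Without treated B the count of fallers was 16.

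The ATF4 response, which supplies amino acids and serine, had 14 fallers and 5 risers among 36. SLC7A5, the leucine transporter LAT1, fell from 1065, 1014 and 1060 CPM to 590, 504 and 454 (log2 change -1.02 ± 0.11), and PSAT1, an enzyme of serine synthesis, from 156, 160 and 157 to 93.8, 93.8 and 106 (-0.69 ± 0.09). The glutamine transporter SLC38A2 rose from 60.7, 54.6 and 60.1 to 136, 150 and 187 (1.43 ± 0.13). Treated and DMSO libraries were fully apart for these transporters and PSAT1.

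Genes of cholesterol synthesis and uptake, controlled by SREBP factors, had 10 risers and 2 fallers among 26. The count of risers was 5 without DMSO A or DMSO B and 17 with the GC and length offset. STARD4, a carrier of sterol between membranes, rose from 8.48, 9.02 and 9.45 CPM to 22.1, 29.3 and 31.1 (log2 change 1.61 ± 0.14). MSMO1, a sterol oxidase, rose from 144, 149 and 144 to 224, 244 and 292 (0.80 ± 0.11). Their groups did not overlap. Of 18 genes of fatty acid synthesis and desaturation 7 rose and 4 fell. ACSS2, which makes acetyl-CoA from acetate, rose from 42.6, 44.1 and 43.7 to 102, 100 and 97.1 (1.20 ± 0.09), and FADS2, a desaturase that overlaps FADS1 and FEN1, from 64.4, 65.1 and 70.6 to 163, 143 and 132 (1.13 ± 0.11).

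Cell cycle genes fell in part, by less than 2-fold. In the list of G1/S and DNA replication, 47 genes, 14 were called lower and 2 higher, with a median log2 change of -0.21. This count of fallers was 5, 4 and 7 without DMSO A, B or C, 3 without treated B, and 23 with either the GC and length offset or the fit of 18 libraries. RFC2, a clamp loader subunit, fell from 90.7, 95.2 and 87.4 CPM to 68.3, 62.5 and 62.1 (-0.50 ± 0.09), and CDC45, a replicative helicase factor, from 81.7, 83.3 and 76.3 to 65.1, 59.8 and 62.3 (-0.37 ± 0.09, adjusted p = 0.013). The CDC45 call was lost without DMSO A (0.067), DMSO B (0.063) or treated B (0.099). POLD1, a replicative polymerase, fell by 0.51 ± 0.11 and UNG, a uracil glycosylase, by 0.46 ± 0.11 on the log2 scale. Of 41 mitotic genes 16 fell and none rose, among them CDC20 (566, 595 and 558 to 389, 340 and 318, -0.71 ± 0.10), which activates the anaphase-promoting complex, the transcription factor MYBL2 (-0.69 ± 0.10) and the kinase gene PLK1 (-0.52 ± 0.08). That count was 7, 7 and 5 without DMSO A, B or C and 4 without treated B. MKI67, the proliferation marker, was at 97.7, 93.5 and 97.3 CPM and then at 103, 129 and 115, not lower in any treated library (0.27 ± 0.10, adjusted p = 0.075). It passed as higher without treated A (0.36, adjusted p = 0.010) and without treated C (0.31, adjusted p = 0.0090), as it did under the stricter filter (0.30, adjusted p = 0.045).

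Inhibitors of cyclin-dependent kinases rose in part. CDKN1A, p21, rose from 28.4, 29.2 and 30.1 CPM to 116, 101 and 86.7 (log2 change 1.79 ± 0.12), and CDKN1C, p57, from 2.32, 1.98 and 1.71 to 8.76, 7.98 and 7.15 (1.99 ± 0.16). CDKN1B, p27 and a FOXO target, was at 72.5, 74.6 and 76.5 and then at 71.4, 69.8 and 71.5 (-0.07 ± 0.09, adjusted p = 0.56). CCND1, cyclin D1, rose from 679, 629 and 685 to 898, 870 and 980 (0.46 ± 0.09), whereas its partner kinase gene CDK4 fell from 161, 170 and 158 to 119, 102 and 91.2 (-0.65 ± 0.11). For p21, p57, cyclin D1 and CDK4 the groups were apart. Of 20 genes of homologous recombination and the Fanconi pathway 1 rose and 1 fell (5.0% each), below the shares over all genes. The riser was RMI2, a member of the BLM helicase complex, from 43.5, 48.2 and 42.5 to 63.5, 63.3 and 73.4 (0.58 ± 0.10), and BLM itself was at 18.4, 18.2 and 19.4 and then at 20.4, 22.7 and 25.7 (0.29 ± 0.11, adjusted p = 0.072). BLM passed as higher without treated A (0.39, adjusted p = 0.013), in the fit of 18 libraries (0.30, 0.015) and under the stricter filter (0.33, 0.040).

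Interferon-stimulated genes leaned down, with 12 fallers and 6 risers among 44. The count of fallers was 7 without DMSO B and 6 without treated B. IFIT1, an antiviral RNA-binding effector, fell from 27.4, 28.8 and 26.4 CPM to 12.8, 13.2 and 14.3 (log2 change -1.04 ± 0.10), and its neighbour IFIT2 from 37.5, 34.3 and 34.3 to 21.2, 23.2 and 24.0 (-0.63 ± 0.10). Both overlap LIPA on the opposite strand. MX1, an antiviral GTPase, fell from 32.3, 31.8 and 33.9 to 23.5, 21.5 and 22.0 (-0.55 ± 0.10). The groups were separate in these 3 genes.

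Antigen presentation had 6 risers and 4 fallers among 25 (24.0% and 16.0%, against 16.8% and 14.5% over all genes). HLA-DQB1, a class II chain, rose from 11.9, 11.99 and 11.3 CPM to 36.1, 33.0 and 25.6 (1.43 ± 0.14). TAP1, the peptide transporter of class I presentation, fell from 195, 189 and 198 to 131, 107 and 87.2 (-0.84 ± 0.13), and PSMB9, an immunoproteasome subunit that shares its promoter region and overlaps it, from 66.7, 75.8 and 60.6 to 42.9, 37.4 and 28.0 (-0.91 ± 0.15). Treated and DMSO libraries did not overlap for these.

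**Figure D4:**
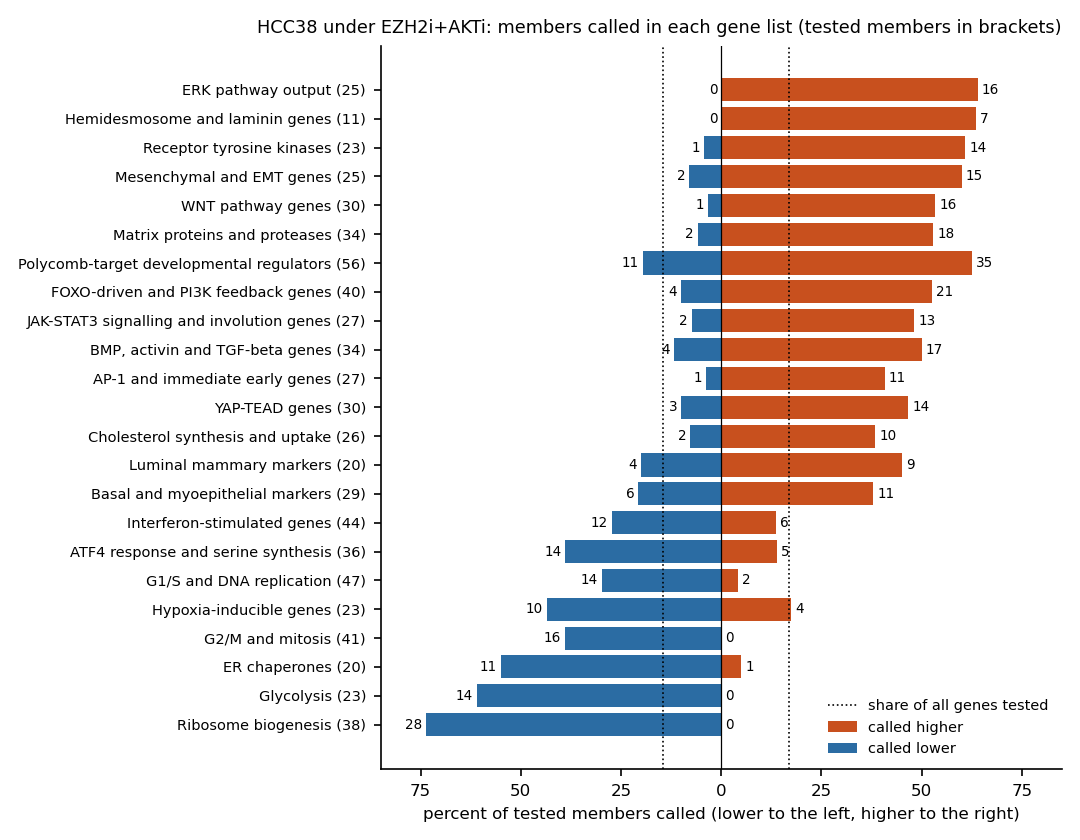
Percent of tested members called higher (red, to the right) or lower (blue, to the left) in HCC38 for 23 of the 44 gene lists. The 23 were selected, and lists near or below the shares over all genes, such as HOX genes and PRC1 subunits, are among those not drawn. The number called is beside each bar, the number tested is in brackets, and dotted lines mark the shares over all genes (16.8 and 14.5). ERK output, hemidesmosome and receptor tyrosine kinase lists lie mostly to the right, and ribosome biogenesis and glycolysis wholly to the left.

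Differences of HCC38 from the other lines were tested in a fit of all 18 libraries, as the HCC38 response less that of the other line. Both differences use the same HCC38 libraries. The response differed from that of HCC1937 for 5841 of 20294 genes (28.8%), 3052 of them with the HCC38 response above and 2789 below. It differed from that of HCC1395 for 6140 genes (30.3%), 3226 above and 2914 below. The list counts of differences below are to be read against these numbers. Each line has its own DMSO libraries. Of the 3826 genes higher in HCC38 in that fit 2116 were also higher in HCC1937 (55.3% of the HCC38 list and 40.7% of the HCC1937 list) and 2015 in HCC1395 (52.7% and 38.5%). Of 3331 lower genes 1681 were also lower in HCC1937 (50.5% and 37.6%) and 1673 in HCC1395 (50.2% and 38.1%). These are to be read against all 20294 genes, of which 5202 were higher and 4467 lower in HCC1937. In HCC1395 5227 were higher and 4387 lower. Of the genes higher in HCC38 361 were lower in HCC1937 and 370 in HCC1395. Of those lower in HCC38 257 were higher in HCC1937 and 382 in HCC1395.

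Replication genes fell less in HCC38 than in the other lines. The median log2 change of the G1/S and DNA replication list was -0.21 in HCC38, -0.90 in HCC1937 and -1.40 in HCC1395, and the HCC38 response was above that of HCC1937 in 38 of 47 genes and above that of HCC1395 in 46. Homologous recombination and Fanconi genes had medians of -0.04, -1.02 and -1.30, with HCC38 above HCC1937 in 18 and above HCC1395 in 19 of 20. CDC45 changed by -0.37 in HCC38, -1.21 in HCC1937 and -1.83 in HCC1395 (differences 0.85 ± 0.10 and 1.46 ± 0.10, adjusted p = 1.4e-06 and 5.1e-10). EZH2 itself fell by 0.84 and 0.88 on the log2 scale in HCC1937 and HCC1395 and differed from both in HCC38 (0.80 ± 0.11 and 0.84 ± 0.11). CDKN1A rose more in HCC38 than in HCC1937 (by 1.44 ± 0.15) or HCC1395 (by 0.97 ± 0.15).

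For BMF and part of the FOXO-linked genes the HCC38 response was the smaller. Under DMSO BMF averaged 0.464 CPM in HCC38, 10.2 in HCC1937 and 11.6 in HCC1395. It rose by 1.37 in HCC1937 and 3.13 in HCC1395, and the HCC38 response was below each (-0.99 ± 0.33, adjusted p = 0.026, and -2.75 ± 0.34, adjusted p = 1.9e-06). TXNIP rose by 1.22 and 1.89 there and was below each in HCC38 (-0.95 ± 0.10 and -1.61 ± 0.10). Over the 40 FOXO and feedback genes the HCC38 response was below that of HCC1937 in 18 and above in 6. It was below that of HCC1395 in 16 and above in 5. Over 17056 genes with 1 entry per symbol it was below HCC1937 in 2651 and above in 2981. Against HCC1395 these numbers were 2772 and 3141. ITGB4 rose by 1.59 and 3.55 in the other lines, against 0.33 in HCC38 (-1.25 ± 0.11 and -3.21 ± 0.11). ALDH1A3, which fell in HCC38, rose by 0.91 and 2.54 (-1.34 ± 0.09 and -2.97 ± 0.09).

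TFPI2 changed by 1.66 in HCC1937 and -0.29 in HCC1395, below HCC38 in both (1.89 ± 0.13 and 3.84 ± 0.13). Cholesterol genes had medians of 0.25 in HCC38, -0.03 in HCC1937 and -0.50 in HCC1395, with HCC38 above in 11 and 17 of 26. STARD4 differed by 1.71 ± 0.14 and 1.59 ± 0.14. Interferon-stimulated genes had medians of -0.21, -0.13 and 1.11, and the HCC38 response was below that of HCC1395 in 32 of 44 and above in none. IFIT1 rose by 2.45 in HCC1395 (difference -3.48 ± 0.14) and MX1 by 2.53 (-3.08 ± 0.14).

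**Figure D5:**
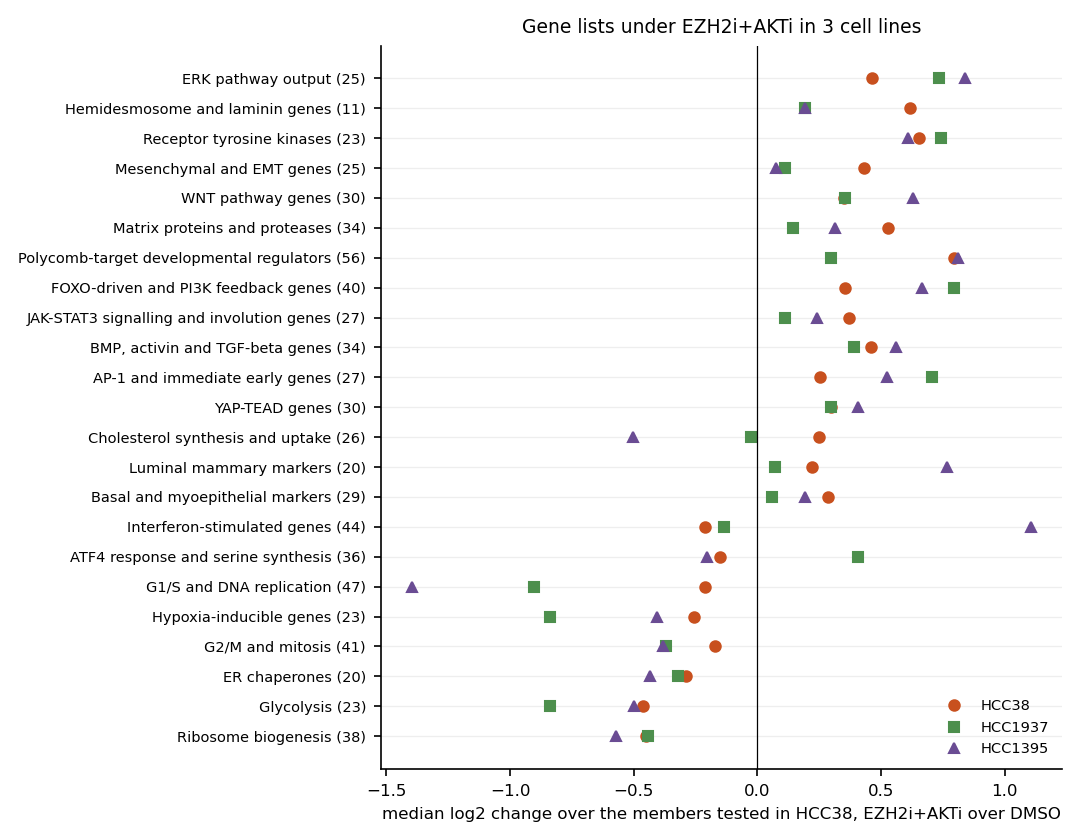
Median log2 change under EZH2i+AKTi (x axis) over the members of each of 23 gene lists (y axis, members tested in HCC38 in brackets) in HCC38 (circles), HCC1937 (squares) and HCC1395 (triangles). The G1/S list lies at -0.21 in HCC38 and at -0.90 and -1.40 in the other lines, and the interferon list at -0.21, -0.13 and 1.11.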

How the data were processed

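Polyadenylated RNA libraries were sequenced, and the authors deposited raw counts per gene symbol for each library, with fastp, HISAT2 2.0.5, DESeq2 and hg38 named in the submitters' processing notes. For the counter, the annotation and strandedness, nothing is given in the sources used here. Each file holds 58735 entries and 57167 symbols, 57142 of them in GENCODE release 29, which gave gene types, positions and lengths. The 27 symbols turned into dates (0.169 to 0.198% of counts) and the 1745 entries that share a symbol stayed in the tests and are not named.

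The test of the 6 HCC38 libraries was the quasi-likelihood test of edgeR 4.0.16 (R 4.3.3), two-sided and robust, after filterByExpr with a minimum count of 10 and TMM scaling, with 4 residual degrees of freedom and Benjamini-Hochberg adjustment over all genes at 0.05. CPM are TMM-scaled except for the cell type markers, and errors of log2 changes are standard errors (SE). Differences between lines were contrasts in a fit of 18 libraries (20294 genes, 12 residual degrees of freedom). Named genes were the 12 largest called changes each way (protein-coding, mean of at least 2 CPM, groups not overlapping), a panel of 28 genes and the 4 members with the smallest p of each of 44 lists, in part. The members and lists were chosen with earlier results of these data known. Some genes are not reported here. Of the 137 named genes 34 overlap another tested gene, 31 of them on the opposite strand, so some may share reads. Promoter sequences were from RefSeq, GRCh38.p14. DESeq2 1.42.0 and limma 3.58.1 were alternatives, as were those named in the closing section, and the stricter filter asked for 1 CPM in 3 libraries. On simulated data the HCC38 test called 95.5% of 2-fold changes, with 10 false calls among 16627 unchanged genes. The simulation changed only a small part of the genes, all with a mean of at least 1 CPM. It held no GC or length trend, so these rates may not hold for the real libraries.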

Additional observations from a re-analysis of the deposited data

Results flagged for a closer look

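The values here are log2 responses of HCC38 less those of another line, for named genes whose difference passed the test in the fit of 18 libraries and was 4-fold or more, and for the genes whose differences are given above. Against HCC1937, 22 such values were found. The HCC38 response was above for AGR2 (3.0), PTGS2 (2.96), ELOVL2 (2.92), INHBA (2.90), FOXQ1 (2.79), FOXA1 (2.69), CORO2B (2.54), OXTR (2.48), EGR3 (2.10), TFPI2 (1.89), STARD4 (1.71), CDKN1A (1.44), CDC45 (0.852) and EZH2 (0.796). It was below for SCNN1G (-4.55), WISP2 (-3.75), ANKRD1 (-2.55), CTGF (-2.46), ALDH1A3 (-1.34), ITGB4 (-1.25), BMF (-0.989) and TXNIP (-0.948). Some of these genes had very unlike levels under DMSO. Mean DMSO levels in HCC38 and HCC1937 were 0.119 and 71.5 CPM for AGR2, 1.75 and 96.3 for FOXA1, and 3.06 and 99.4 for FOXQ1. They were 11.7 and 0.267 for SCNN1G, but 80.4 and 80.2 for CDC45. HCC38 levels are scaled within its 6 libraries and the others within the 18.

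Against HCC1395, 20 such values were found. The HCC38 response was above for TFPI2 (3.84), CORO2B (2.84), SLC1A1 (2.57), TBX15 (2.33), ELOVL2 (2.22), OXTR (2.01), STARD4 (1.59), CDC45 (1.46), CDKN1A (0.973) and EZH2 (0.835). It was below for IFIT1 (-3.48), ITGB4 (-3.21), MX1 (-3.08), ALDH1A3 (-2.97), WISP2 (-2.97), BMF (-2.75), IFIT2 (-2.36), KRT8 (-2.34), HOXB9 (-2.14) and TXNIP (-1.61). Here too levels under DMSO could be unlike. Mean DMSO levels in HCC38 and HCC1395 were 26.7 and 0.0864 CPM for HOXB9 and 1018 and 33.4 for KRT8, but 80.4 and 52.3 for CDC45. Groups of 3 libraries were not tested for single libraries that stand apart.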

How the results depend on the processing

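The alternatives were RLE scaling, no low-count filter, a stricter filter, DESeq2, limma voom, a replicate block, the fit of 18 libraries, each library left out in turn and, chosen after seeing the data, an offset for GC content and length. Over these, 1084 of 1094 values of named genes under other settings and 791 of 822 with a library left out kept their direction and their side of the threshold. Calls ranged, with a library left out, from 1938 to 3731 genes higher and from 1060 to 3110 lower, and with the offset stood at 4094 and 3517, of which 2803 and 2121 were called the same way in the 6-library fit without it. Falls of 2-fold or more were 152 to 318 with a library left out and 98 under the stricter filter. Called members with a library left out were 8 to 19 for AP-1 genes, 5 to 15 for cholesterol genes, 9 to 16 for glycolysis, 16 to 33 for ribosome biogenesis, 5 to 13 for ER chaperones, 3 to 20 for G1/S, 4 to 20 for G2/M and 6 to 15 for interferon-stimulated genes. With the offset they were 21 for AP-1 genes, 17 for cholesterol genes and 23 for G1/S, and in the fit of 18 libraries 23 for G1/S. With a library left out, EZH2 ranged from -0.11 to 0.049 (without treated A). The cause of these moves was not tested. Deviations of same-lettered libraries from their group means correlated at -0.18, 0.12 and 0.22 over genes. Not every library correlated best with its own letter (DMSO B with treated A, 0.32). These deviations cancel within each group and carry the GC and length trends of single libraries. They therefore cannot settle whether the letters pair cultures. The replicate block gave 3002 genes higher and 2791 lower. Simulated 1.5-fold changes were called in 58.2% of genes, so small changes could be missed at this depth and number of libraries.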

Other observations

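Autophagy and lysosome genes, through which cells recycle proteins and membranes, had 10 risers and 2 fallers among 44 tested. These were 22.7% and 4.55%, against 16.8% and 14.5% over all genes. The median log2 change was 0.10 against -0.01 over all genes. MITF, a transcription factor of the family that controls lysosome genes, rose from 20.1, 19.6 and 20.4 CPM to 43.1, 42.3 and 51.8 (log2 change 1.19 ± 0.11). WIPI1, which binds the forming autophagosome, rose from 5.78, 6.57 and 6.46 to 13.0, 13.2 and 14.8 (1.12 ± 0.12), and NPC1, the lysosomal cholesterol exporter, from 147, 139 and 152 to 213, 213 and 228 (0.58 ± 0.09). The groups did not overlap in these 3 genes.

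Targets and feedback genes of NF-kB, the inflammatory transcription factor, had 8 risers and 4 fallers among 31. These were 25.8% and 12.9%, against 16.8% and 14.5% over all genes. The adhesion molecule ICAM1 rose from 9.48, 10.1 and 9.53 CPM to 23.5, 17.8 and 17.4 (log2 change 1.01 ± 0.14), and PTGS2, the inducible cyclooxygenase, from 1.26, 1.33 and 1.56 to 2.97, 4.0 and 4.34 (1.44 ± 0.20). CXCL8, a neutrophil chemokine, was at 18.1, 19.7 and 20.2 and then at 20.2, 22.5 and 26.5 (0.25 ± 0.12, adjusted p = 0.14), and passed as higher without treated A (0.35, adjusted p = 0.025). OXTR, the oxytocin receptor of myoepithelial cells, rose from 10.4, 9.17 and 9.01 to 32.4, 34.4 and 40.2 (1.90 ± 0.12). The 13 protein-coding genes of the mitochondrial genome gave no call, with medians over the DMSO mean of -0.21, -0.20 and 0.56 (log2) in treated A, B and C.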
